A study of Mus musculus with 12 samples.

Results

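Naive B cells of the mouse spleen were compared with the mean of 5 activated stages, and the genes that differed from naive in the same direction in every stage were described. The comparison rested on 12 libraries, of which 2 were naive and 10 were activated, with 2 in each stage and an equal weight for each stage. Of 12750 genes tested, 870 (6.82%) were called lower than naive in all 5 stages and are referred to as lost, and 548 (4.30%) were called higher in all 5 and are referred to as gained. In the activated mean, 2649 genes (20.8%) were called higher than naive and 2696 (21.1%) lower. Of these, 2101 of the higher and 1826 of the lower genes missed the call in at least 1 stage. These words describe transcript levels, and some lost genes kept a high level after activation.

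All samples came from male C57BL/6 mice (a C57BL/6 Pep3b background in the methods) aged 6 to 12 weeks, with no genotype or transgene in the labels. Naive cells were untreated and were sorted from spleen after red cell lysis as TCRβ-B220+IgM+IgDhi. The other samples were negatively isolated with magnetic beads, labelled with CellTrace Violet (CTV) and cultured with 25 µg/ml lipopolysaccharide (LPS), a bacterial ligand of the receptor TLR4. Undivided cells (TCRβ-CD69+, highest CTV) were sorted at 3, 10 and 33 h, and on day 4 the expanded B cells were sorted as CD22+CD138- and the plasmablasts as CD22-CD138+. The day 4 cells were grown at a lower density than the undivided ones. Naive and activated cells therefore differed in isolation and sort gate as well as in stimulation, and these cannot be told apart. CD22, CD69, CD138, IgM and IgD were sorting markers, so the levels of their genes in the gated stages are no independent finding.

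Naive B cells circulate between blood and lymphoid organs in a small, non-dividing state that is actively held by transcription factors of the KLF and FOXO families and by brakes on growth signalling. They carry IgM and IgD, complement and IgE receptors and much MHC class II, with which they present antigen. On activation, B cells enlarge, make ribosomes, proteins and nucleotides, divide, and may become plasmablasts that secrete antibody and give up much of the B cell programme.

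Total counts ran from 23026619 to 60585587 per library. RPKM (reads per kilobase of exon, scaled to library size) were computed from the counts and are given as replicate 1 and replicate 2. They are shares of each library's RNA, so a change of the RNA content per cell was not measured, and fewer cells of a type cannot be told apart from less RNA per cell. Fold changes are given on the log2 scale as activated minus naive, calls are from edgeR's glmTreat against a fold change of 1.5 with adjusted p under 0.05, and a gene with at most 3 counts in both libraries of a stage was taken to be at the floor there. With n = 2 per stage, p-values rest on the spread between biological duplicates, estimated jointly over all 6 stages and moderated across genes.

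The labels were checked against their markers first. The B cell receptor gene Cd79b was high in every library, at 2165 and 2096 RPKM in naive cells and at 704 to 1703 RPKM after activation. The plasma cell regulator Prdm1 had 0.603 and 0.475 RPKM in the naive libraries, 1.40 and 1.66 after 3 h, 4.32 and 5.403 after 10 h, 6.42 and 11.5 after 33 h, 44.6 and 48.4 in expanded and 105 and 117 in plasmablast libraries. Sdc1, which encodes the sorting marker CD138, had 47.6 and 48.0 RPKM in plasmablasts against 1.27 and 1.71 in expanded cells, and 8.54 and 7.72 RPKM in naive cells. The activation marker Cd69 was at 269 and 263 RPKM at 3 h against 35.2 and 32.5 RPKM in naive cells, yet in the 33 h cells, gated on the CD69 protein, it was at 16.9 and 14.6 RPKM.

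Klf2, Ciita and Lyz2 were all lost, but not in the same way. Klf2 (chr8:72319062-72321654, mm10), which holds lymphocytes in quiescence, had 525 and 471 RPKM in the naive libraries, 98.6 and 63.5 after 3 h, 78.6 and 65.3 after 10 h, 106 and 68.6 after 33 h, 63.0 and 53.5 in expanded and 1.07 and 1.17 in plasmablast libraries. In RPKM, most of the fall had happened by 3 h. The level then changed little up to expanded cells and dropped again in plasmablasts (log2 fold change -3.96 ± 0.15 (SE), adjusted p = 3.15e-09). On the log2 scale the change was -2.62 at 3 h, -3.09 in expanded cells and -8.79 in plasmablasts. Ciita (chr16:10480014-10531064), the master activator of MHC class II genes, had 138 and 133 RPKM in the naive libraries, 17.5 and 28.5 after 3 h, 15.9 and 14.6 after 10 h, 39.3 and 26.0 after 33 h, 30.5 and 25.8 in expanded and 0.900 and 0.743 in plasmablast libraries. It followed the same course (log2 fold change -3.48 ± 0.14 (SE), adjusted p = 8.86e-09), with its lowest level before plasmablasts at 10 h. Lyz2 (chr10:117277541-117282272), the lysozyme of macrophages and granulocytes and no B cell gene, had 5032 and 1642 counts in the naive libraries (141 and 60.2 RPKM) and at most 3 counts in each of the 10 activated libraries. It was at least 381-fold lower after activation, and its naive replicates differed by more than 2-fold, unlike those of Klf2 and Ciita.

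**Figure D1:**
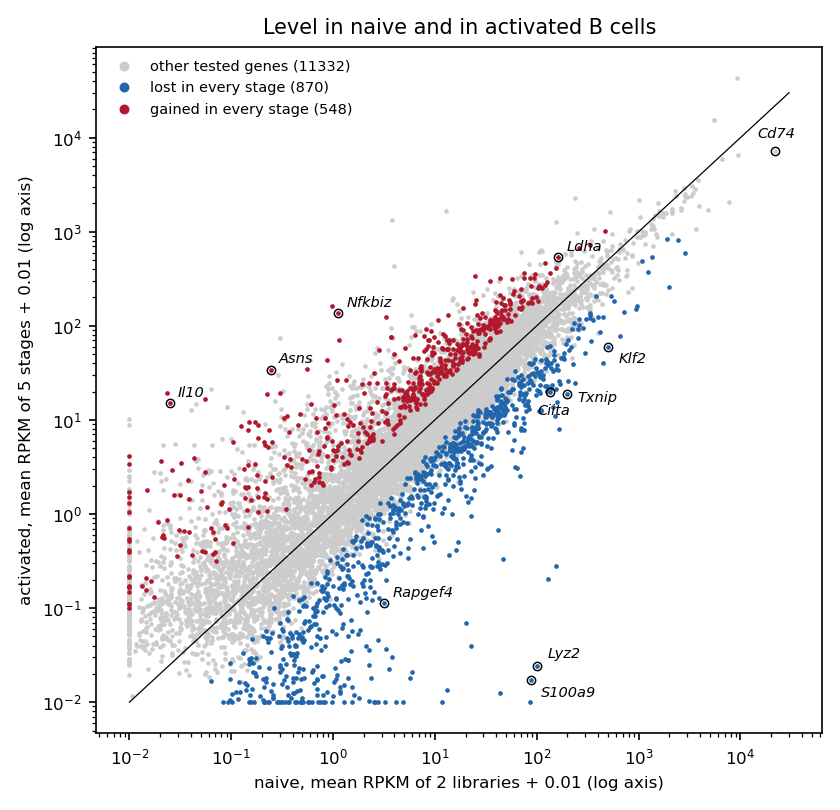
Mean RPKM in naive cells (x axis, 2 libraries) against the mean over the 5 activated stages (y axis), both on log axes after adding 0.01, for the 12750 tested genes. Blue marks the 870 lost and red the 548 gained genes, the line marks equal levels, and Lyz2 and S100a9 lie far below lost B cell genes such as Klf2, Ciita and Txnip.

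In all 870 lost genes both naive libraries lay above all 10 activated libraries, and in 547 of 548 gained genes both lay below. The genes were called from these same libraries, so this separation and the median changes that follow are descriptions and no added support. Over all tested genes, 17.9% of genes had naive above all activated libraries and 16.0% below, so such separation also occurred in genes that were not called in every stage. The 1 exception was Slc6a9, a glycine transporter named after its values were seen, with 0.0451 and 0.0355 RPKM in the naive libraries, 0.0170 and 0.793 after 3 h, 3.57 and 4.98 after 10 h, 0.406 and 0.567 after 33 h, 1.04 and 1.10 in expanded and 2.27 and 2.66 in plasmablast libraries. Its first 3 h library lay below both naive libraries. The median change of the lost genes was -2.69 (-2.54 with genes at the floor set to their bound) and that of the gained genes 1.79 (1.78), beside 0.02 for all tested genes. In their weakest stage, 324 lost and 121 gained genes still differed by more than 4-fold.

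The stage of the deepest loss varied. Of the 870 lost genes, 287 were at the floor in at least 1 stage, where stages cannot be ranked, and 583 were not. Of these 583, plasmablasts had the lowest level for 207, 3 h cells for 147, 10 h cells for 103, expanded cells for 90 and 33 h cells for 36. Their median change was -2.06 for the 3 h stage, -1.96 for 10 h, -1.72 for 33 h, -1.94 for expanded cells and -2.27 for plasmablasts, with the shallowest value in 33 h cells. Of the 548 gained genes, 149 were highest at 3 h and 124 in plasmablasts, and 192 had their smallest gain in plasmablasts. A further 751 genes were lower in 4 of the 5 stages and 928 higher in 4. The missing stage was most often 3 h, for 313 of the lower and 431 of the higher genes, or plasmablasts, for 221 and 344. Stage by stage, the share of tested genes called higher or lower than naive was 21.0% and 24.3% in 3 h cells, 19.5% and 19.9% in 10 h cells, 22.3% and 20.8% in 33 h cells, 24.9% and 22.2% in expanded cells and 26.6% and 23.4% in plasmablasts. All 5 comparisons share the naive libraries. Lost genes had a median of 7.73 RPKM in naive cells, gained genes 6.54 and all tested genes 7.85, and 212 lost genes were under 1 RPKM. Protein-coding genes made up 812 of the lost, 523 of the gained and 11814 of the tested genes. The median exon length was 2989 bases for lost and 2370 for gained genes, against 2718 for tested genes.

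Among 13 transcription factors tied to quiescence, 10 were called lower in the activated mean and 0 higher, and 5 were lost (median change of the list -1.56). Over all tested genes, 21.1% were called lower in the mean, 20.8% higher, 6.82% lost and 4.30% gained. The counts of each list below stand beside these shares. Ets1, which restrains plasma cell formation, had 307 and 294 RPKM in the naive libraries, 70.4 and 54.7 after 3 h, 62.6 and 73.2 after 10 h, 46.7 and 36.2 after 33 h, 44.4 and 44.6 in expanded and 42.5 and 38.6 in plasmablast libraries. All activated libraries lay below naive, by about the same amount in each stage (log2 fold change -2.58 ± 0.09 (SE), adjusted p = 4.37e-10). Foxo1, a factor for B cell homing and survival, had 111 and 111 RPKM in the naive libraries, 56.2 and 58.7 after 3 h, 41.8 and 49.8 after 10 h, 38.6 and 30.0 after 33 h, 35.3 and 36.2 in expanded and 45.5 and 43.0 in plasmablast libraries, a smaller fall (log2 fold change -1.38 ± 0.08 (SE), adjusted p = 2.70e-07). Klf13 and Rbl2, a pocket protein that represses cell cycle genes, were the other lost members. Klf4 and Klf3 were lower in the mean (log2 fold change -3.08 ± 0.20 and -1.98 ± 0.11), but neither was called at 3 h. Klf4 was at 2.89 and 1.55 RPKM there against 2.84 and 3.29 RPKM in naive cells. Both 3 h libraries lay below naive for Klf3, at 35.8 and 27.4 RPKM against 47.6 and 42.6 RPKM (-0.52 ± 0.17). Foxo3 was lower in all stages but plasmablasts, where it had 33.4 and 32.8 RPKM against 37.6 and 37.3 RPKM. Its change there was -0.18 ± 0.13, which was not called.

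Of 25 genes that brake growth or division, 14 were lower in the mean, 1 was higher and 6 were lost, with a median change of -1.04. Txnip, which limits glucose uptake, had 196 and 202 RPKM in the naive libraries, 18.2 and 24.1 after 3 h, 16.4 and 17.4 after 10 h, 18.0 and 14.0 after 33 h, 14.7 and 15.7 in expanded and 24.8 and 24.8 in plasmablast libraries. Its levels after activation lay within a narrow band in every stage (log2 fold change -3.43 ± 0.08 (SE), adjusted p = 2.01e-11). Pik3ip1, an inhibitor of PI3 kinase, and Sesn1, a stress protein that inhibits mTORC1, were lost as well, from 15.6 and 16.7 RPKM to 2.23 to 4.65 RPKM and from 41.6 and 41.0 RPKM to 5.80 to 15.2 RPKM. Cdkn2d, Sesn3 and Zfp36l2 were the other lost brakes. Btg1, an antiproliferative gene, had 182 and 176 RPKM in the naive libraries, 261 and 227 after 3 h, 45.1 and 49.7 after 10 h, 23.8 and 17.3 after 33 h, 37.1 and 40.3 in expanded and 10.4 and 11.3 in plasmablast libraries. It was not below naive at 3 h (log2 fold change 0.45 ± 0.13, adjusted p = 0.853) and was called lower in the other 4 stages. Its relative Btg2 was called lower only at 10 h, 33 h and in expanded cells (-1.34, -1.78 and -1.30). The 1 higher member was Sesn2, at 1.64.

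**Figure D2:**
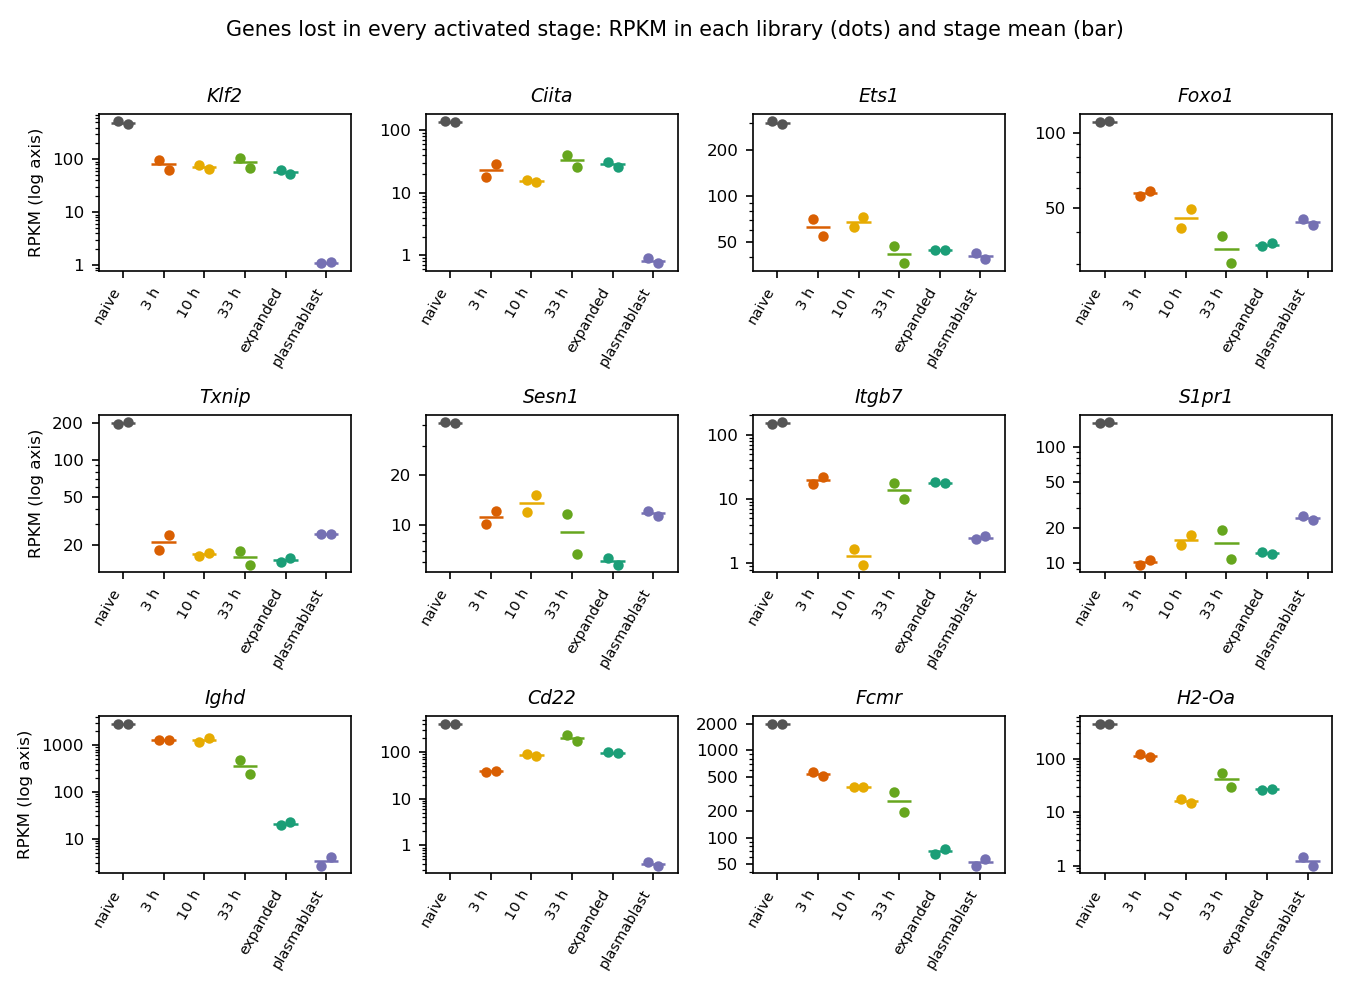
RPKM of 12 lost genes (y axes, log scale) in naive cells and the 5 activated stages (x axes), with a dot for each of 2 libraries and a bar for their mean. The naive libraries lie above all others in each panel. Klf2, Ciita and H2-Oa drop again in plasmablasts, while Txnip, S1pr1 and Foxo1 do not. Cd22 drops there too, but plasmablasts were sorted as CD22-.

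Receptors that guide B cells through lymphoid organs were also lower, with 11 of 17 lower in the mean, 1 higher and 6 lost (median -1.22). S1pr1, the receptor for egress into blood, had 158 and 161 RPKM in the naive libraries, 9.77 and 10.7 after 3 h, 14.5 and 17.4 after 10 h, 19.2 and 10.8 after 33 h, 12.5 and 12.1 in expanded and 25.4 and 23.5 in plasmablast libraries. It was lost (-3.42 ± 0.13), with its lowest level at 3 h, and all activated libraries lay far below naive. Itgb7, the integrin chain used in homing to the gut, had 148 and 155 RPKM in the naive libraries, 17.1 and 22.2 after 3 h, 1.69 and 0.959 after 10 h, 17.7 and 10.1 after 33 h, 18.2 and 17.7 in expanded and 2.36 and 2.65 in plasmablast libraries, and was lowest at 10 h. Cnr2, a cannabinoid receptor, fell from 108 and 100.4 RPKM to 5.29 to 21.7 RPKM, and S1pr4 and Ccr6 were lost as well. Ccr7, the receptor for the T zone, was not among the lost genes, being called higher than naive at 3 h and 10 h (2.63 ± 0.16 and 0.98 ± 0.15) and lower from 33 h on (-1.25, -2.86 and -7.40).

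Of 32 B cell surface receptors, 24 were lower in the mean, 2 were higher and 12 were lost, with a median change of -1.50. Ighd, the IgD heavy chain, had 2879 and 2893 RPKM in the naive libraries, 1287 and 1291 after 3 h, 1185 and 1416 after 10 h, 473 and 246 after 33 h, 19.2 and 23.0 in expanded and 2.65 and 3.99 in plasmablast libraries. The fall was under 3-fold at 3 and 10 h and exceeded 100-fold on day 4. Cd22, an inhibitory coreceptor and one of the day 4 sorting markers, had 413 and 414 RPKM in the naive libraries, 38.2 and 40.1 after 3 h, 89.5 and 81.4 after 10 h, 238 and 171 after 33 h, 101 and 96.1 in expanded and 0.432 and 0.368 in plasmablast libraries. It was lowest at 3 h among undivided cells and had partly returned by 33 h, where its change was smallest (-1.02 ± 0.12). Fcmr, the receptor for IgM, fell step by step, with 1989.8 and 2029 RPKM in the naive libraries, 561 and 507 after 3 h, 385 and 378 after 10 h, 337 and 195 after 33 h, 64.4 and 74.6 in expanded and 47.8 and 56.7 in plasmablast libraries. Cr2, the complement receptor 2, fell from 122 and 129 RPKM to 3.93 to 66.2 RPKM. Cd79a, Cd37, Cd38, Siglecg, Pirb, Cd180, Cd84 and Cd55 were the other lost members. Fcer2a, the low-affinity IgE receptor CD23, had 761 and 819 RPKM in the naive libraries, 774 and 873 after 3 h, 187 and 209 after 10 h, 125 and 79.3 after 33 h, 23.4 and 17.8 in expanded and 2.23 and 2.06 in plasmablast libraries. Its level at 3 h overlapped naive, and it was then lower in each later stage.

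Of the B cell lists, MHC class II genes had the largest median fall, -2.53, with 13 of 15 lower in the mean, 0 higher and 6 lost. Besides Ciita these were H2-Oa, H2-DMb1, H2-DMb2, H2-DMa and H2-Eb2, of which the H2-DM and H2-O genes load or control the loading of peptide. H2-Oa had 452 and 449.7 RPKM in the naive libraries, 119.6 and 108 after 3 h, 17.3 and 14.8 after 10 h, 53.0 and 29.8 after 33 h, 26.2 and 27.1 in expanded and 1.49 and 1.01 in plasmablast libraries (log2 fold change -4.57 ± 0.13 (SE), adjusted p = 2.65e-10). H2-DMa fell from 909.9 and 975 RPKM to 322 and 266 at 3 h and 50.4 and 48.9 in plasmablasts, and H2-DMb2 from 958 and 959.5 RPKM to 451 and 374 and 24.4 and 23.2. Cd74, the invariant chain, was the most abundant of those named, with 22252 and 21011 RPKM in the naive libraries, 17017 and 14222 after 3 h, 3161 and 3023 after 10 h, 6485 and 4983 after 33 h, 5498 and 5594 in expanded and 6184 and 6337 in plasmablast libraries. At 3 h it had not passed the call (-0.47 ± 0.11, adjusted p = 0.831), and the list's median was -0.80 there but -3.19 at 10 h. H2-Aa, H2-Ab1 and H2-Eb1, the chains that present peptide, were likewise lower in 4 of 5 stages.

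Of 20 GIMAP proteins and regulators of small GTPases, 15 were lower in the mean and 0 higher, and 4 were lost (median -1.15). Rapgef4, an exchange factor for Rap1 that responds to cAMP, fell from 3.37 and 2.96 RPKM to 0.00536 to 0.254 RPKM (log2 fold change -5.40 ± 0.18 (SE), adjusted p = 1.15e-10). Gimap1, Arhgap45 and Rhoh were lost too. Gimap7 was at 79.8 and 73.8 RPKM in naive cells and at 5.75 and 4.52 at 10 h, and at 57.7 and 52.2 it was not called lower in expanded cells (-0.48). Rasa3, a RAS inhibitor, had 149 and 148 RPKM at 3 h against 145 and 137 RPKM in naive cells, and then 7.27 and 6.80 at 10 h. Of 11 genes of marginal zone and B-1 cells, 4 were higher and 3 lower, beside 20.8% and 21.1% of all tested genes, and 0 were lost or gained.

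A set of 12 lost genes was named by rule, as those with the largest change in their weakest stage at an average log2 CPM (counts scaled to library size) of at least 4 and in no list of other cells. Of these, Txnip, Itgb7 and S1pr1, are given above. Marchf1, a ubiquitin ligase that removes MHC class II from the surface, had 60.3 and 68.8 RPKM in the naive libraries, 1.90 and 2.64 after 3 h, 4.33 and 4.60 after 10 h, 8.403 and 5.09 after 33 h, 1.99 and 1.74 in expanded and 0.167 and 0.212 in plasmablast libraries. Serpinb1a, an inhibitor of neutrophil proteases, had 159.9 and 173 RPKM in the naive libraries, 7.32 and 8.78 after 3 h, 2.15 and 1.93 after 10 h, 20.7 and 14.2 after 33 h, 10.1 and 8.89 in expanded and 3.42 and 2.61 in plasmablast libraries. Zfp831, a zinc finger gene, fell from 20.4 and 20.3 RPKM to 0.899 to 2.60 RPKM, with its smallest fall at 33 h (-3.21 ± 0.17). Mylip, a ubiquitin ligase for the LDL receptor, fell from 72.1 and 69.3 RPKM to 11.7 and 8.21 at 3 h and 1.14 and 1.09 in plasmablasts. Calhm2, of a family of large-pore channels, was lowest at 3 h, at 0.898 and 1.43 RPKM against 63.6 and 56.9 RPKM in naive cells. Grap2, an adaptor of antigen receptor signalling, fell from 71.9 and 69.0 RPKM to 1.74 to 13.5 RPKM. Cacna1i, a calcium channel subunit, Rflnb, a filamin-binding protein, and Scml4, a Polycomb-related gene, had changes of -4.09 ± 0.14, -4.60 ± 0.09 and -3.90 ± 0.12.

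Gained genes had their early group in NF-kB targets and activation genes. Of 30 tested members, 20 were higher in the mean, 0 lower and 9 gained, against 20.8% of all tested genes higher and 4.30% gained. The list's median was 3.62 at 3 h and 0.10 in plasmablasts. Nfkbiz, an atypical inhibitor of NF-kB induced by LPS, had 1.196 and 1.01 RPKM in the naive libraries, 545 and 468 after 3 h, 88.5 and 90.8 after 10 h, 39.2 and 33.8 after 33 h, 26.8 and 25.9 in expanded and 24.2 and 28.2 in plasmablast libraries. It peaked at 3 h and stayed more than 20-fold above naive in each stage (log2 fold change 5.87 ± 0.13 (SE), adjusted p = 1.17e-11). Il2ra, the IL-2 receptor alpha chain, had 0.894 and 0.832 RPKM in the naive libraries, 159 and 141 after 3 h, 22.5 and 25.5 after 10 h, 9.06 and 8.14 after 33 h, 10.4 and 11.6 in expanded and 24.2 and 24.6 in plasmablast libraries. Bcl2l1, which encodes the survival protein BCL-XL, had 3.21 and 3.37 RPKM in the naive libraries, 435 and 356 after 3 h, 43.5 and 50.6 after 10 h, 26.3 and 33.6 after 33 h, 37.1 and 48.3 in expanded and 99.9 and 119 in plasmablast libraries. Both were highest at 3 h and rose again from 33 h to plasmablasts. Ccl22, a chemokine, was highest at 10 h, at 70.4 and 61.4 RPKM against 0.261 and 0.321 RPKM in naive cells. Traf1, Cd80, Batf, Pim1 and Cd44 were the other gained members. Myc, a driver of growth, was not gained in every stage, with 31.1 and 28.9 RPKM in the naive libraries, 835 and 706 after 3 h, 138 and 139 after 10 h, 74.2 and 78.5 after 33 h, 37.4 and 39.8 in expanded and 27.0 and 35.0 in plasmablast libraries, and its plasmablast level overlapped naive.

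**Figure D3:**
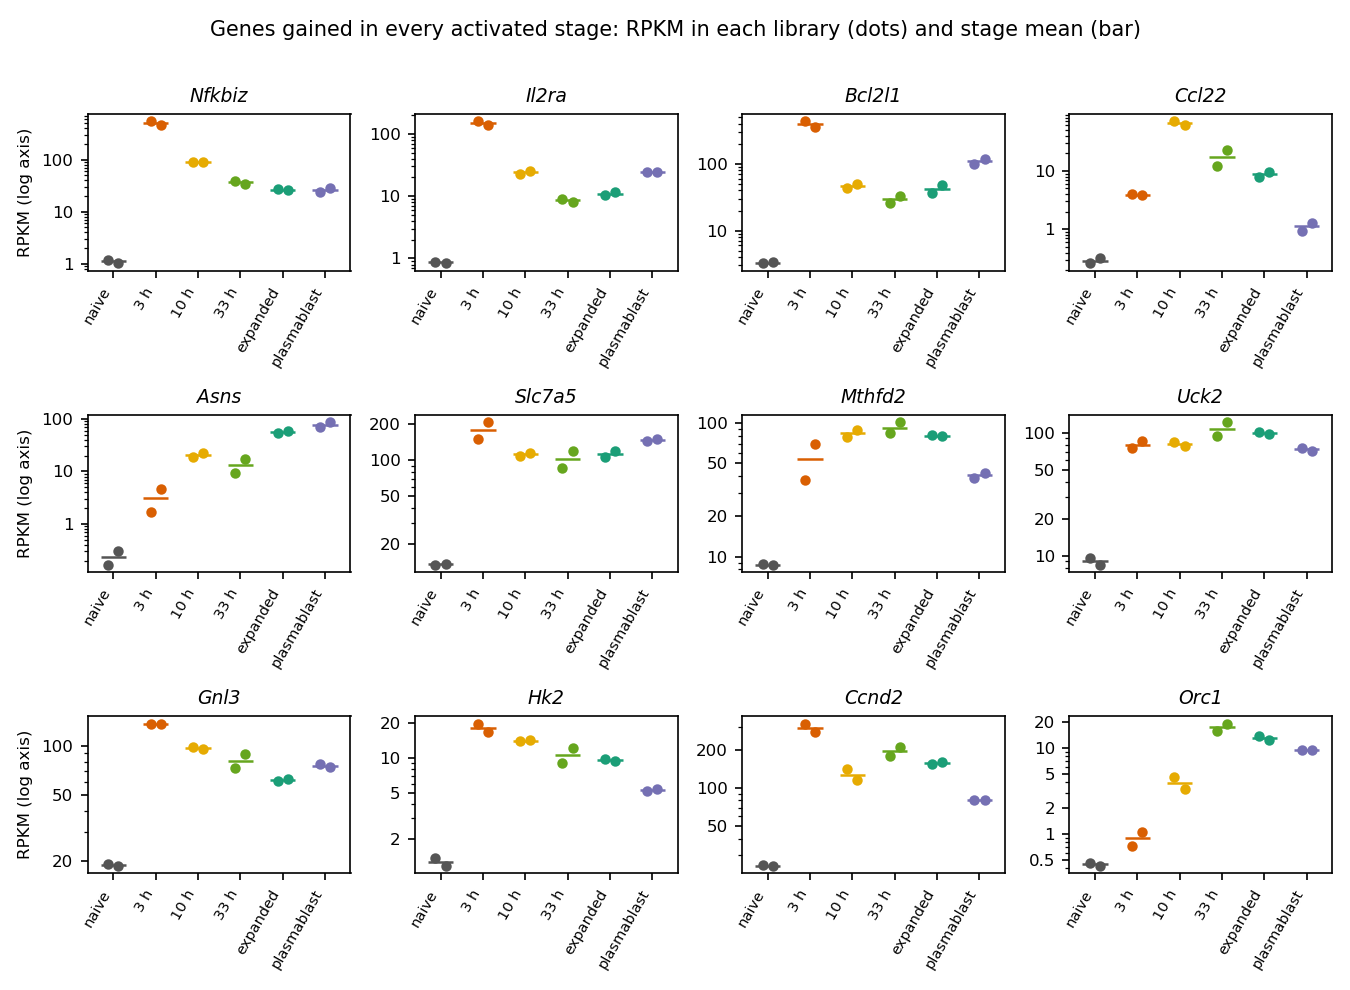
RPKM of 12 gained genes (y axes, log scale) in naive cells and the 5 activated stages (x axes), with a dot for each of 2 libraries and a bar for their mean. The naive libraries lie below all others in each panel, Nfkbiz, Il2ra and Bcl2l1 are highest at 3 h, and Asns and Orc1 are highest on day 4 or at 33 h.

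Supply of amino acids was the group with the largest share of gained genes. Of 31 tRNA synthetases, transporters and enzymes of amino acid synthesis, 25 were higher in the mean, 0 lower and 18 gained (median 1.62), and the list's median lay between 1.31 and 1.81 in the 5 stages. Asns, asparagine synthetase, had 0.169 and 0.302 RPKM in the naive libraries, 1.71 and 4.65 after 3 h, 18.7 and 22.3 after 10 h, 9.27 and 17.6 after 33 h, 53.0 and 58.7 in expanded and 70.6 and 85.7 in plasmablast libraries. Among activated stages it was lowest at 3 h and highest in plasmablasts, at over 300-fold naive by the fitted change (8.42 ± 0.55). Slc7a5, a transporter of large neutral amino acids, had 13.4 and 13.5 RPKM in the naive libraries, 149 and 207 after 3 h, 109 and 115 after 10 h, 86.9 and 119 after 33 h, 106 and 119 in expanded and 144 and 151 in plasmablast libraries. It was raised to a like level in each stage (log2 fold change 3.25 ± 0.16 (SE), adjusted p = 7.45e-09). Mthfd2, of mitochondrial folate metabolism, had 8.73 and 8.71 RPKM in the naive libraries, 37.4 and 70.6 after 3 h, 79.6 and 88.4 after 10 h, 84.0 and 102 after 33 h, 81.3 and 80.7 in expanded and 39.1 and 42.5 in plasmablast libraries. Slc1a4, another transporter, had 0.188 and 0.247 RPKM in the naive libraries, 0.682 and 7.15 after 3 h, 8.79 and 10.0 after 10 h, 2.77 and 3.47 after 33 h, 3.81 and 4.54 in expanded and 5.07 and 4.91 in plasmablast libraries. The 3 h replicates of Slc1a4 stood 10 times apart, and its call there had an adjusted p of 0.00833. Replicate 2 at 3 h was also the higher for Asns and Mthfd2, and the cause was not tested. Atf4, the transcription factor of the amino acid response, was gained (2.15 ± 0.11), with 10 of 13 tRNA synthetases listed.

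Nucleotide synthesis genes were higher for 21 of 24 members, with 0 lower and 5 gained (median 1.45). Uck2, a uridine kinase, had 9.63 and 8.49 RPKM in the naive libraries, 74.6 and 85.4 after 3 h, 84.2 and 77.6 after 10 h, 94.3 and 121 after 33 h, 102 and 97.6 in expanded and 75.5 and 71.6 in plasmablast libraries, about 8- to 12-fold above naive in each stage. Ctps, CTP synthase, rose from 9.40 and 9.27 RPKM to 20.2 to 77.3 RPKM. Umps, Gmps and Dctpp1 were gained too. Rrm2, a subunit of the enzyme that makes deoxynucleotides, was instead called higher from 33 h on, being at 1.74 and 1.93 RPKM at 3 h and 118 and 176 at 33 h against 3.94 and 3.52 RPKM in naive cells. Tyms, thymidylate synthase, was called lower at 3 h (-1.07 ± 0.25) and higher from 10 h on.

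Ribosome biogenesis genes were higher in the mean for 42 of 48 members, with 0 lower. In every stage 3 were gained, Gnl3, Nolc1 and Bysl, beside 4.30% of all tested genes. The list's median fell with time, from 2.10 for the 3 h stage and 1.71 for 10 h to 1.38 for 33 h, 0.89 for expanded cells and -0.04 for plasmablasts. Gnl3, a nucleolar GTPase, had 19.0 and 18.7 RPKM in the naive libraries, 136 and 134 after 3 h, 97.8 and 94.9 after 10 h, 73.1 and 88.7 after 33 h, 60.8 and 62.4 in expanded and 77.3 and 74.1 in plasmablast libraries. Ncl, nucleolin, showed the usual course of the list, with 159 and 164 RPKM in the naive libraries, 752 and 722 after 3 h, 533 and 584 after 10 h, 467 and 583 after 33 h, 330.3 and 325 in expanded and 134 and 132 in plasmablast libraries, and its plasmablast libraries lay below naive without passing the call. Npm1, nucleophosmin, rose most at 10 and 33 h (1.34 and 1.35) and was at -0.38 in plasmablasts, where no call was made. Nop16, Pno1 and Mrto4 were called higher in the 4 stages before plasmablasts. In plasmablasts they were not called, but both libraries still lay above naive. Their changes there were 0.54 ± 0.12, 0.57 ± 0.10 and 0.68 ± 0.13.

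Proteasome subunits were raised more evenly. Of 31, 29 were higher in the mean, 0 lower and 15 gained, with list medians of 0.89 at 3 h and 0.95 to 1.23 in the later stages. Psmd7, a subunit of the lid, had 49.0 and 48.0 RPKM in the naive libraries, 151 and 180.3 after 3 h, 171 and 161 after 10 h, 160.4 and 189 after 33 h, 138 and 139.6 in expanded and 89.4 and 93.9 in plasmablast libraries. Psmd11, Psmd1 and Psmd6 of the regulatory particle rose as well, by 1.44 ± 0.10, 1.41 ± 0.08 and 1.30 ± 0.09. Chaperones and importers of mitochondrial proteins were higher for 22 of 27 members and 5 were gained, among them Timm17a and Timm23 of the inner membrane import channel (1.80 ± 0.10 and 1.72 ± 0.13). Hspd1 and Hsp90aa1, chaperones of mitochondria and cytosol, were not called in plasmablasts, at 65.4 and 65.2 RPKM against 39.7 and 43.7 RPKM in naive cells for Hspd1.

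Glycolysis was more selective, with 9 of 18 genes higher, 1 lower and 5 gained, and a median of 0.65. Hk2, the inducible hexokinase, had 1.37 and 1.17 RPKM in the naive libraries, 19.7 and 16.6 after 3 h, 13.8 and 14.2 after 10 h, 9.08 and 12.2 after 33 h, 9.74 and 9.31 in expanded and 5.16 and 5.36 in plasmablast libraries. Slc16a1, the lactate exporter MCT1, had 3.49 and 3.15 RPKM in the naive libraries, 49.6 and 38.3 after 3 h, 18.9 and 17.0 after 10 h, 22.1 and 28.7 after 33 h, 21.9 and 22.8 in expanded and 14.2 and 13.5 in plasmablast libraries. Both were highest at 3 h and lowest, among activated stages, in plasmablasts. Ldha, lactate dehydrogenase A, rose from 155 and 170.3 RPKM to 363 to 797 RPKM and Pgam1 from 17.4 and 19.7 RPKM to 45.5 to 86.3 RPKM. The glucose transporter gene Slc2a3 was the 1 lower member (-1.21 ± 0.07), and Slc2a1 did not pass the test (-0.31 ± 0.11).

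**Figure D4:**
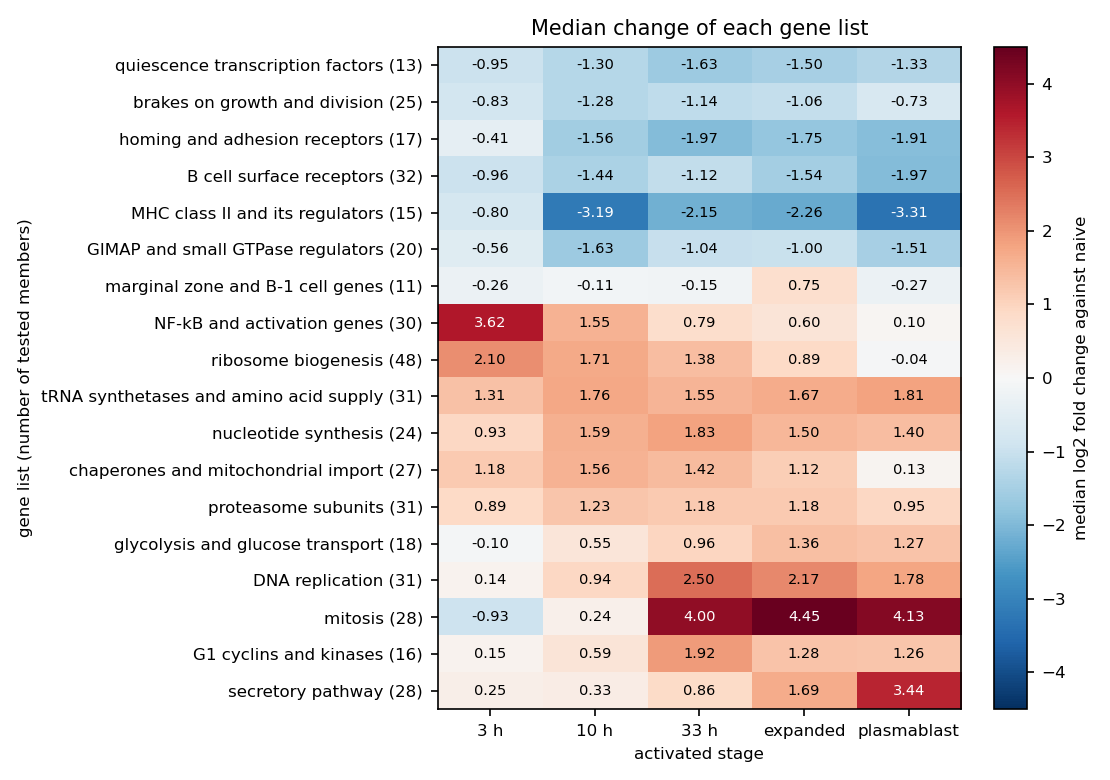
Median log2 fold change against naive (colour and number) of the tested members of 18 gene lists (y axis) in the 5 activated stages (x axis). The quiescence, brake, receptor and MHC class II lists are below 0 in all stages, amino acid supply, nucleotide and proteasome lists above 0 in all, and mitosis and ribosome biogenesis lists change side between stages.

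Cell division genes were high in the activated mean, but most were not gained in every stage, as 4.30% of all tested genes were. Of 28 mitotic genes 27 were higher in the mean and 0 were gained, as the list's median was -0.93 at 3 h, where 12 were called lower, and 4.00 at 33 h. Tpx2, a spindle factor, had 2.03 and 2.10 RPKM in the naive libraries, 2.39 and 1.84 after 3 h, 2.67 and 2.42 after 10 h, 39.1 and 61.5 after 33 h, 70.9 and 71.9 in expanded and 58.8 and 61.1 in plasmablast libraries, and its 3 h and naive libraries overlapped. Of 31 DNA replication genes 27 were higher and 5 were gained, among them Orc1, the largest subunit of the origin recognition complex, with 0.461 and 0.425 RPKM in the naive libraries, 0.721 and 1.06 after 3 h, 4.51 and 3.28 after 10 h, 15.5 and 19.1 after 33 h, 13.7 and 12.4 in expanded and 9.53 and 9.36 in plasmablast libraries. Mcm3, Mcm5, Pold2 and Pcna were the other gained members. Of 16 G1 cyclins and kinases 10 were higher and 3 were gained. Ccnd2, cyclin D2, had 24.8 and 24.6 RPKM in the naive libraries, 321 and 274 after 3 h, 140.5 and 115 after 10 h, 179.6 and 210.1 after 33 h, 155 and 160.2 in expanded and 80.2 and 80.9 in plasmablast libraries, highest at 3 h. Ccne2, cyclin E2, was at 0.607 and 0.623 RPKM at 3 h and 5.37 and 5.74 at 33 h against 0.321 and 0.313 RPKM in naive cells. Of 28 secretory pathway genes 25 were higher in the mean and 1, Canx, a chaperone of the endoplasmic reticulum, was gained. For Jchain, the joining chain of IgM, the mean rested on day 4, with 289.6 and 372 RPKM in expanded cells and 8216 and 7779 in plasmablasts against 16.4 and 9.13 RPKM in naive cells.

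The 12 gained genes named by the same rule as the lost ones held several that were nearly silent in naive cells. Il10, an anti-inflammatory cytokine, had 0 and 1 counts in the naive libraries and 9.48 to 30.2 RPKM after activation, at least 106-fold higher. Dusp14, a phosphatase, also had 0 and 1 naive counts and was at least 13.8-fold higher, with its highest level in plasmablasts (71.4 and 76.0 RPKM). Sytl3, of vesicle transport, had 0.132 and 0.0947 RPKM in the naive libraries, 11.9 and 13.6 after 3 h, 5.44 and 5.89 after 10 h, 7.01 and 7.81 after 33 h, 13.8 and 11.2 in expanded and 5.10 and 5.08 in plasmablast libraries. Wnt10b, a Wnt ligand, was highest at 3 h and Akap1, a scaffold at mitochondria, in expanded cells, with fitted changes of 4.76 ± 0.16 and 4.48 ± 0.20. Ptgir, the prostacyclin receptor, rose from 0.0975 and 0.0930 RPKM to 0.451 to 12.1 RPKM. Pmepa1, a gene induced by TGF-beta, had 0.834 and 0.941 RPKM in the naive libraries, 10.2 and 8.38 after 3 h, 10.9 and 8.09 after 10 h, 9.98 and 10.1 after 33 h, 7.78 and 8.72 in expanded and 9.04 and 8.64 in plasmablast libraries. Nfkbiz, Il2ra, Asns and Slc1a4, given above, were also among the 12.

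The promoters of the lost genes Txnip and H2-DMa and of the gained genes Slc16a1 and Ldha are shown as examples, being 4 of the 7 named lost or gained genes whose promoters hold a motif that was searched for in all promoters. RefSeq promoters (GRCm38.p6, the same build as mm10) were taken at the start that the table gave, which for H2-DMa and Ldha lay inside the span of the gene, and 250 bases before the start were searched on both strands. Each line gives 60 bases of the plus strand, and capitals mark GTAAACA (FOXO type) in Txnip, the reverse complement of CCACACCC (KLF type) in H2-DMa, and CACGTG (E-box) in Slc16a1 and Ldha.
Txnip, chr3:96557810-96557869: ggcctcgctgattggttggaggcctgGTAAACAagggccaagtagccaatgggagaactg
H2-DMa, chr17:34122703-34122762: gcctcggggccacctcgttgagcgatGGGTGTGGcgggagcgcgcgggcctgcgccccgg
Slc16a1, chr3:104638437-104638496: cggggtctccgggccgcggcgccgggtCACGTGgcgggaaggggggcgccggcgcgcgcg
Ldha, chr7:46845729-46845788: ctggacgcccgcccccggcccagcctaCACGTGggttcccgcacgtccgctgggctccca

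These motifs were present in small shares of promoters. A promoter was matched for 690 lost, 431 gained and 9919 tested genes. GTAAACA was found in 1.45% of lost, 1.62% of gained and 2.09% of tested genes, and in 3.06% of the 27025 genes of the table. CCACACCC was in 5.36% of lost, 3.02% of gained and 3.57% of tested genes (3.22% of the table), and CACGTG in 6.38%, 9.05% and 8.42% (6.04%). The kappaB motif GGGACTTTC was in 0.43% of lost, 0% of gained and 0.37% of tested genes (0.28%), and the octamer ATTTGCAT in 1.16%, 0.93% and 1.43% (1.62%). The median number of CpG in the 250 bases was 8 for lost, 18 for gained and 16 for tested genes. Without listed markers of other cells and genes at the floor in all activated libraries, the lost genes had a median of 11. No test was made, and a match is a description of letters.

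Transcripts of other spleen cells were kept apart by lists of their markers. Of the 870 lost genes, 57 were on such lists and 813 were not, and 2 gained genes were listed, Flt3 and Tfrc, of which Tfrc, the transferrin receptor, had 2.57 and 3.09 RPKM in the naive libraries, 93.7 and 76.3 after 3 h, 36.5 and 30.7 after 10 h, 50.8 and 66.8 after 33 h, 63.9 and 59.4 in expanded and 36.8 and 36.6 in plasmablast libraries. Monocyte and neutrophil markers summed to 344 and 139 CPM (on TMM-scaled library sizes) in the naive libraries and to 2.23 to 27.0 CPM in the activated ones, and 14 of 16 tested members were lost. S100a9 and S100a8, the calgranulins of neutrophils, had 2148 and 562 and 1618 and 485 counts in naive libraries, and were at least 130.3- and 112-fold lower after activation. Ngp, a neutrophil granule protein, was at least 172-fold lower. In replicate 1 of the naive cells these genes were over 2-fold higher than in replicate 2, while B cell genes such as Ighd and Cd22 were within a few percent of each other.

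Macrophage markers summed to 936 and 739 CPM in naive and 285 to 907 CPM in activated libraries, with 13 of 22 tested lost. Their sums thus overlapped, and Ctsb, the lysosomal cathepsin B, which made up 27.2% of the naive sum, had 169 and 169 RPKM in plasmablasts against 47.4 and 48.7 RPKM in naive cells. Apoe was higher at 3 h than in naive cells by values (366 and 463 against 310.1 and 239 RPKM), with no call. The 10 members at the floor in every activated library summed to 192 and 96.2 CPM in naive cells. NK cell markers summed to 32.1 and 29.6 CPM in naive and 2.91 to 11.5 CPM in activated libraries, with 9 of 11 tested lost, among them Gzma, granzyme A, at least 24.6-fold lower. T cell markers summed to 348 and 378 CPM in naive and 38.0 to 128 CPM in activated libraries, with 6 of 16 lost. Of this naive sum 75.2% was Cd2, which B cells also express, and the 6 T cell markers at the floor in every activated library summed to 1.68 and 2.13 CPM.

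Erythroid markers summed to 252 and 200.4 CPM in naive and 169 to 466 CPM in activated libraries, where Tfrc was part of the sum, with 4 of 7 lost and 1 gained. Hba-a1, an alpha-globin gene that shares reads with its near-identical copy Hba-a2, had 178 and 134 RPKM in the naive libraries, 0.0997 and 0.294 after 3 h, 1.34 and 0.0946 after 10 h, 0 and 0.714 after 33 h, 0.0448 and 0.0537 in expanded and 0 and 0.0631 in plasmablast libraries. Dendritic cell markers summed to 75.5 and 83.1 CPM in naive and 98.5 to 208 CPM in activated libraries, with 4 of 11 lost and 1 gained. Bst2 made up 38.1% of this naive sum and was called higher than naive in every activated stage but 3 h. The 2 dendritic markers at the floor in every activated library summed to 0.561 and 0.853 CPM in naive cells. The median change of that list was -1.05, and 0.35 with genes at the floor set to their bound. Platelet markers summed to 38.1 and 40.2 CPM (6.85 to 70.0 CPM activated) with 4 of 5 lost. Of this naive sum 83.7% was Itgb3, an integrin chain called higher than naive in expanded cells and lower at 10 and 33 h. The 7 platelet markers at the floor in every activated library summed to 1.74 and 1.82 CPM in naive cells. Mast cell and basophil markers summed to 7.06 and 4.46 CPM (0.62 to 4.94 CPM) with 2 of 4 lost. Stromal and endothelial markers summed to 287 and 324 CPM (29.4 to 107 CPM), of which 99.2% in naive cells was Pecam1, the CD31 gene that lymphocytes express too, and it was the 1 lost of 4 tested.

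**Figure D5:**
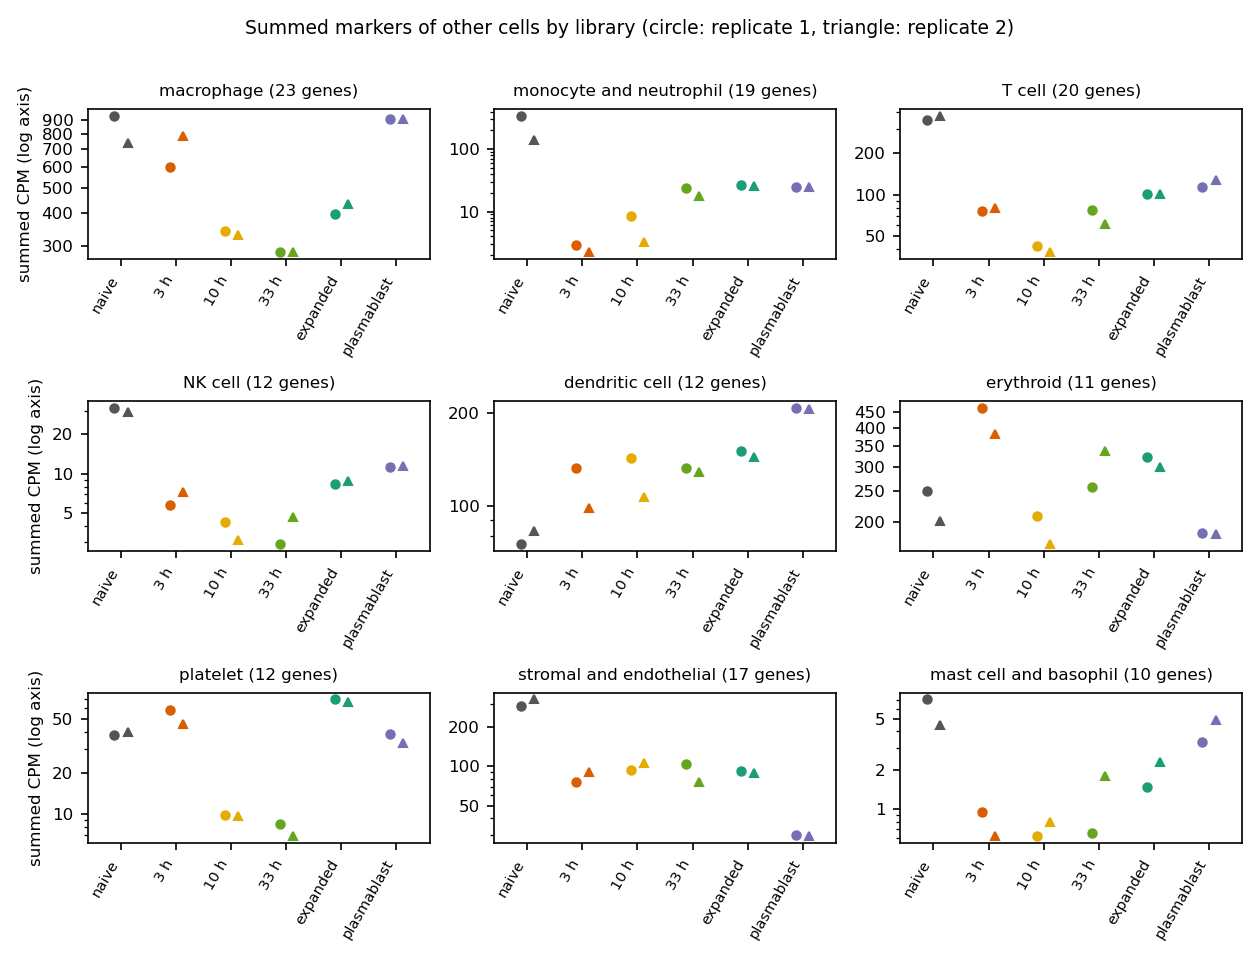
Summed CPM (y axes, log scale) of listed markers of 9 other cell types in each library of naive cells and the 5 activated stages (x axes), with circles for replicate 1 and triangles for replicate 2. Monocyte and neutrophil, T cell, NK cell and stromal markers are higher in both naive libraries than in any activated one, and only the first differs over 2-fold between the naive replicates.

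Many listed markers were near absent after activation. All 10 activated libraries were at 3 counts or fewer for 33 of the 57 listed lost genes and for 84 of the 813 others. A gene at this floor could enter the tests only through its naive libraries, so these counts are a description. The part of other cells in the naive sort in the loss of these genes was not tested. Leaving out the listed genes and those at the floor, a step chosen after the values were seen, left 729 lost genes with a median change of -2.37 and a median naive level of 12.6 RPKM. Klf2 and Ciita were among them, as were the 12 lost genes named by rule, which the rule took from outside the lists of other cells. Without naive replicate 1, 739 genes were lost, of which 724 were among the 870, and without naive replicate 2, 796 were lost, of which 751 were among them.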

How the data were processed

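RNA with poly(A) tails from 12 sorted samples (6 groups of 2 biological duplicates) was sequenced in pairs of reads. Per the labels and the study's methods, the authors used Rsubread for alignment (mm10) and its featureCounts for assignment to Entrez genes, and deposited the whole-number count of each gene with its exon length. The single-sample tables deposited beside the series table held the same counts, so the series table was used, and 0 of its sample columns were left out. Whether counting used strand is not given in the sources used here, so reads of overlapping or antisense genes cannot be told apart.

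Of 27179 genes, 25275 were matched to RefSeq (GRCm38.p6) by Entrez number. Unmatched genes (1.41 to 2.08% of counts), genes of X and Y (1.82 to 2.39%), variable immunoglobulin genes (0.242 to 5.19%), rRNA genes and mitochondrial genes (4.74 to 11.3%) were removed, which left 23700 genes and 84.0 to 90.6% of the counts. Of these, 12750 passed edgeR's filterByExpr. Counts were normalized by TMM and fitted with edgeR 4.0.16 in R 4.3.3 (glmQLFit, robust, 6 stages). All p-values are 2-sided, from glmTreat at a fold change of 1.5 across all tested genes, with Benjamini-Hochberg adjustment. Those for differences between activated stages are instead from the quasi-likelihood F-test with no fold threshold, adjusted in the same way. Standard errors are from the quasi-likelihood F-test of the same contrast. Lost and gained genes were called in each of 5 contrasts against naive cells. Counting limits cover counting error only, and read pairs were not marked by molecular identifiers. A bound on a fold change sets the group at the floor to 3 counts per library.

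Genes were named by a rule: Ciita, Klf2 and Lyz2; the 12 lost and the 12 gained genes with the largest change in their weakest stage at an average log2 CPM of at least 4, in no list of other cells and not a predicted model; up to 4 members of each B cell or growth list with the largest change, and genes set by name; and the 3 members of each list of other cells with the highest naive RPKM. Those set by name included Klf4, Foxo1, Foxo3, Btg1, Btg2, S1pr1, Fcer2a, Cr2, Cd22, Ighd, Cd74, Myc, Ncl and Npm1. Other list members named were chosen after their values were seen. Some genes that the rule names, and some sorting markers, are not reported here. The members and lists were chosen with earlier results of these data known. Samples of the same replicate number had correlations of their deviations from the group means of -0.139 to 0.0841 over 15 pairs of groups, so the numbers were not used as a block. The alternatives are given in the closing section, and DESeq2 1.42.0 was one of them.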

Additional observations from a re-analysis of the deposited data

Results flagged for a closer look

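A difference between activated stages was the most common reason for a closer look. Of the tested genes, 1191 were called higher than naive in 1 activated stage and lower in another, and the mean over the stages describes these poorly. Tests of the difference between stages are from edgeR's quasi-likelihood F-test, with adjusted p-values. Sdf2l1, a chaperone partner of the endoplasmic reticulum, differed by 6.88 ± 0.23 on the log2 scale between plasmablasts and 3 h cells (adjusted p = 7.84e-11), at 5.46 and -1.43 against naive. Tyms, thymidylate synthase, differed by 6.24 ± 0.20 between 33 h and 3 h cells (adjusted p = 1.12e-10), at 5.16 and -1.07. Ctsb, cathepsin B, differed by 3.37 ± 0.10 between plasmablasts and 3 h cells (adjusted p = 1.65e-11), at 1.82 and -1.55. Itgb3, an integrin chain listed as a platelet marker, differed by 3.22 ± 0.14 between expanded and 33 h cells (adjusted p = 1.66e-08), at 1.05 and -2.17.

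Variable immunoglobulin genes were not part of any test, and their share of all counts stood above the naive libraries on day 4. It was 1.13% and 1.284% in expanded cells and 5.12% and 5.19% in plasmablasts, against 0.439% and 0.435% in naive cells.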

How the results depend on the processing

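The number of genes called depended on the threshold and the test, and that of gained genes also on the normalization. With the F-test and no fold threshold, 4738 genes were higher and 4683 lower in the activated mean, 1633 lost and 1447 gained. At 2-fold these were 1411, 1641, 516 and 225. With at least 10 counts in every library 531 genes were lost, by construction without genes near the floor. DESeq2's Wald test gave 598 lost and 362 gained genes. With library size alone, without TMM, 918 genes were lost and 392 gained, of which 821 and 373 were among those reported. Leaving plasmablasts or 3 h out gave 892 and 979 gained genes, since fewer stages had to pass. By separation of the libraries alone, without a test, 2280 genes were lost and 2037 gained.

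Without 1 library at a time, 2264 to 2755 genes were higher, 2319 to 2928 lower, 739 to 911 lost and 452 to 595 gained. With the replicate number as a block, 877 genes were lost, of which 860 were among those reported, and the pairing changed no count by over 1.5 times.

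Medians of a few lists changed sign. That of marginal zone and B-1 genes was 0.20 without plasmablasts and 0.086 without 3 h (-0.22 as reported). That of the dendritic list was 1.05 with the 10-count filter and 0.14 without naive replicate 1 (-1.05 as reported), and ran from -1.62 to 0.14 over left-out libraries. That of the erythroid list was 1.52 with the 10-count filter, where fewer genes were tested. Of 3149 alternative values for 122 named genes, 12 moved across the threshold and 0 changed direction.

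Each stage rests on 2 libraries, and genes at the floor have only a bound. Added after the data were seen, leaving out listed markers of other cells gave 813 lost genes, and 729 without those at the floor as well.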

Other observations

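Of the 1191 genes called in opposite directions in different stages, 507 were lower than naive at 3 h and higher in plasmablasts, and 287 were higher at 3 h and lower in plasmablasts. The share of counts from mitochondrial genes, which were left out of the tests, was 10.1% and 11.3% in the naive libraries and 4.74% to 8.15% in the activated ones.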
